A study of Mus musculus with 4 samples.

Results

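The glycolytic enzymes and hypoxia response genes were followed in ATDC5, a chondrogenic cell line of the mouse, after transfection with an RNA duplex against Chadl or with a scrambled duplex. Members were all probe sets whose only annotated gene symbol was 1 of 33 listed genes. Of these, 30 genes were measured, by 57 of the 45037 probe sets tested, and they were 30 of the 17097 genes tested. The other 3, Gpi1, Pgam1 and Eno1, had no probe set that carried their symbol alone. Their signal was not analysed here, and they entered only the promoter counts. The measured genes fell into 12 glycolytic enzymes and 18 others, the latter made up of 6 genes of sugar and lactate transport and flux control, 4 of oxygen sensing and 8 further targets of the hypoxia-inducible factor HIF. Values are log2 signals after RMA, a background and between-array normalization for Affymetrix arrays, and each gene is given by its probe set with the highest mean signal unless another is named.

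Both groups had 2 arrays. All cells were ATDC5 cells that received 30 nM of a duplex with a lipid reagent, were moved to differentiation medium after 16 h and were harvested at day 5. The control cells received the universal scrambled duplex and the knockdown cells a duplex specific for Chadl, so that knockdown rests on 1 duplex sequence in 1 cell line. The labels call the arrays biological replicates, and nothing says that the cultures were separate, so the spread that the p-values rest on may be a technical one. The oxygen level of the cultures was not given in the sources used here.

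Glycolysis splits glucose into pyruvate in the cytosol, and lactate dehydrogenase turns pyruvate into lactate where mitochondria do not oxidise it. When oxygen is low, the prolyl hydroxylases of the EGLN family no longer mark HIF-1alpha and HIF-2alpha for degradation, and the stabilised factors raise transcription of glucose transporters, most glycolytic enzymes, pyruvate dehydrogenase kinase and genes of mitophagy and pH control. Cartilage has no vessels, and its cells are known to live at low oxygen and to draw much of their energy from glycolysis. HIF protein is set mainly by its degradation, which the mRNA signals measured here do not report.

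The targeted gene, Chadl, read 4.91 and 4.84 in the control arrays against 4.29 and 4.64 in knockdown 1 and 2. The log2 difference of -0.41 (SE 0.12, adjusted p = 0.728, limma) did not pass the test. Chadl had 1 probe set and was rather dim, at the 47.1th percentile of signal among genes, where the array can understate a change. Over the whole array, knockdown 1 was the more distant from control. It lay within 0.15 of the control mean for 70.7% of genes, against 81.9% for knockdown 2. The SD over genes of the difference between the knockdowns was 0.20, against 0.10 between the controls. The chondrocyte markers were only in part clearly present. Of the 12 measured, Sox9, Col2a1, Col9a1, Col11a1 and Acan read above the highest leukocyte marker signal (4.82), and the other 7 lay at or under it in all arrays. In knockdown 1, 6 of the 12 were lower than both controls, and the share of all genes with that pattern was not counted. Of these 6, Comp, Matn1, Matn4 and Hapln1 lay under 4.82 in all arrays. The log2 difference from the control mean in knockdown 1 was -0.82 for Col2a1, -0.77 for Matn1, -0.68 for Col9a1 and -0.62 for Hapln1. For Sox9 it was 0.0056. In knockdown 2 the difference was 0.12 for Col2a1, 0.05 for Matn1, 0.17 for Col9a1 and -0.20 for Hapln1. Col11a1 was higher in both knockdown arrays, by 0.10 and 0.20. The median over the 12 was -0.11 in knockdown 1 and 0.01 in knockdown 2, beside -0.0031 and 0.01 over all genes. The osteoblast markers mostly read lower, more so in knockdown 1, and none passed (lowest adjusted p = 0.694, limma). In knockdown 2 the differences from the control mean were -1.14 for Ibsp, -0.26 for Dmp1, -0.22 for Phex, -0.11 for Sp7 and -0.03 for Bglap. Of 8 listed markers 5 were measured. Of these 5, 4 were lower in each knockdown array than in either control, against 17.1% of all genes. Their summed linear signal was 1626 to 1649 in the controls, 436 in knockdown 1 and 983 in knockdown 2. Ibsp made up most of it in the controls but not in knockdown 1. Without Ibsp the sums were 493 to 511, 306 and 466, and Phex was 0.86 above the control mean in knockdown 1. Fewer cells of a type and less RNA per cell cannot be told apart in bulk RNA, and the part of these differences in the members' values was not tested.

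No glycolysis or hypoxia gene passed the test over all genes, and most mean differences were small. Of the 30 members 0 passed an adjusted p of 0.05 in limma, as of all genes (0%), and the lowest adjusted p of a member was 0.652. At an unadjusted p of 0.05, 2 members were higher (Aldoc and Ldhb, background 4.15% of all genes) and 1 was lower (Ankrd37, background 2.52%). The median log2 difference was 0.0042 for the glycolytic enzymes and -0.01 for the other members, beside 0.0067 over all genes. The mean difference was smaller than 0.15 for 24 of the 30 members, against 83.4% of all genes. Taken singly, knockdown 1 was within 0.15 of the control mean for 17 members (70.7% of all genes) and knockdown 2 for 22 (81.9%), in both cases a smaller share of the members than of all genes. The 95% confidence interval of the difference lay inside a 1.5-fold change either way for 28 of 30, against 96.6% of all genes, and the exceptions were Ldhb and Slc2a1.

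The calls depended on which knockdown array was kept. Without knockdown 1, 4 members passed, with Hk1, Aldoc and Hif1a higher and Pdk1 lower, against 3.28% of all genes. Without knockdown 2, 8 members passed, with Aldoc, Ldhb, Bnip3 and Ndrg1 higher and Slc2a1, Ldha, Ddit4 and Higd1a lower, against 15.1% of all genes. In both fits the lone knockdown array was taken to vary like the controls. Aldoc was the only gene of both sets, with adjusted p = 0.0424 and 0.0157 in limma.

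**Figure D1:**
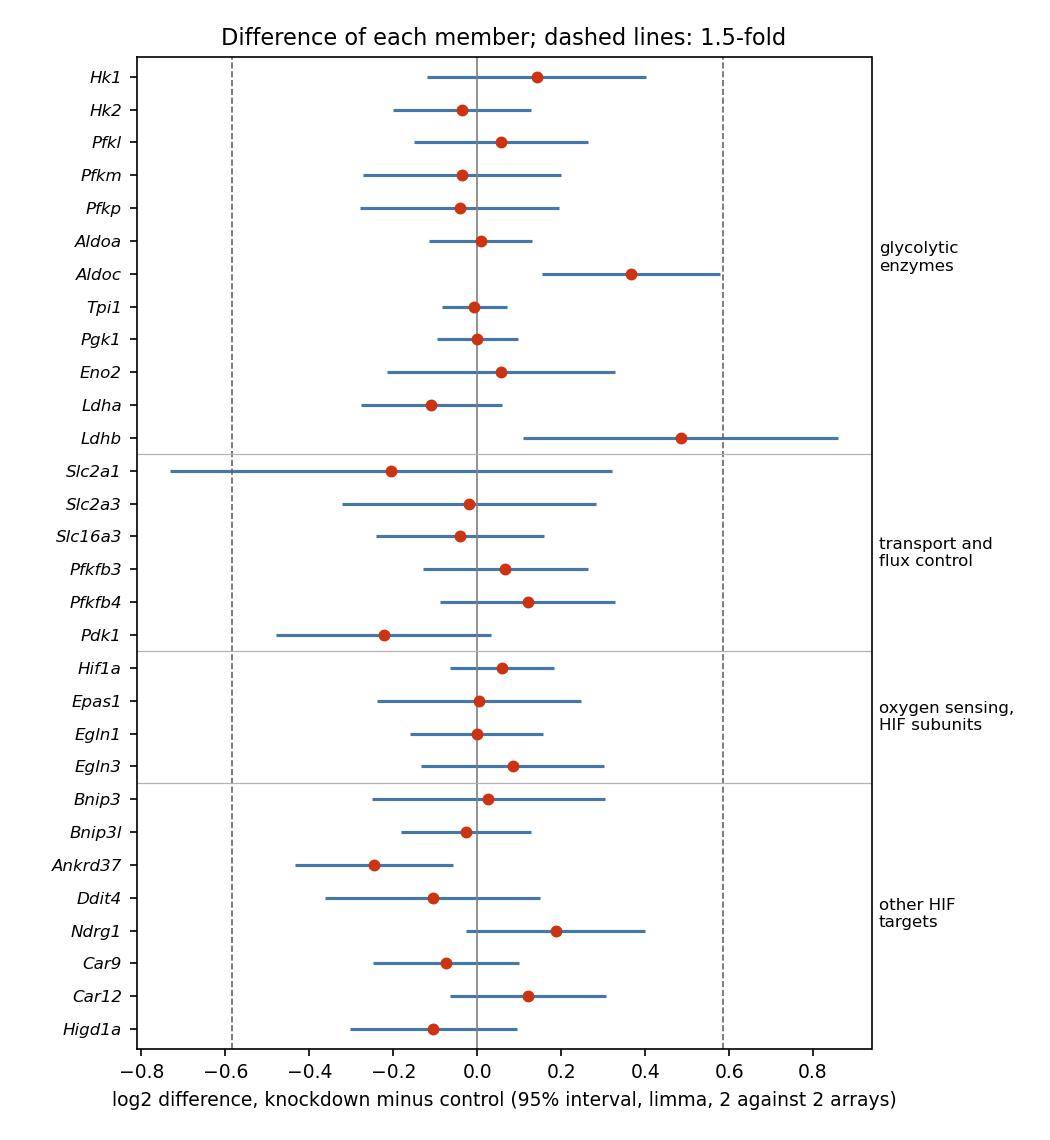
The log2 difference (knockdown minus control, x axis) of each of the 30 measured members is shown as a point with its 95% confidence interval from limma (2 against 2 arrays), grouped by role, with dashed lines at a 1.5-fold change. The intervals of Ldhb and Slc2a1 cross a dashed line, and those of Aldoc, Ldhb and Ankrd37 do not include 0.

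Groups that did not overlap were found for 9 of the 30 members. The knockdown pair was above the control pair for 5 members (Aldoc, Ldhb, Pfkfb4, Ndrg1 and Car12), against 21.2% of all genes, and below both for 4 (Pdk1, Bnip3l, Ankrd37 and Car9), against 17.1%, so that neither share of the members exceeded that of all genes. The 2 groups overlapped for the other 21. Of the 57 probe sets, 8 had the knockdown pair above the control pair (18.6% of all probe sets) and 13 below (19.9%), and 0 passed an adjusted p of 0.05 over all probe sets (0.00222%) in limma. Of the 9 separated members, 4 had a mean difference of at least 0.2, namely Aldoc, Ldhb, Pdk1 and Ankrd37, and 7.28% of all genes met both conditions.

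The promoters of the members that stood apart are shown with that of Ldha, a textbook HIF target, because HIF binds a short core, ACGTG or GCGTG, in the genes that it activates. The 250 bases before the RefSeq start (assembly GRCm38.p6) were searched for this core on both strands, so that CACGT and CACGC also count, and overlapping matches were joined. Capitals mark the matches, and where a gene had several RefSeq starts the window with most matches is given.
Ldha, chr7:46845554-46845803, plus strand: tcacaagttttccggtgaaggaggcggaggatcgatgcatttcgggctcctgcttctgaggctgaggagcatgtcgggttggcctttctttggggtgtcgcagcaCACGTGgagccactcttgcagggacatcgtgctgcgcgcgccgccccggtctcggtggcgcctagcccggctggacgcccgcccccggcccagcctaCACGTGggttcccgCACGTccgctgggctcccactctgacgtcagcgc
Ldhb, chr6:142507958-142508207, minus strand: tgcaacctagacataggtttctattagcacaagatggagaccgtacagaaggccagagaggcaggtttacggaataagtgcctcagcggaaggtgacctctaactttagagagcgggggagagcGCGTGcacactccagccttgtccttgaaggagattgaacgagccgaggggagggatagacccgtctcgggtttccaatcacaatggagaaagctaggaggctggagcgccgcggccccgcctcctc
Aldoc, chr11:78322823-78323072, plus strand: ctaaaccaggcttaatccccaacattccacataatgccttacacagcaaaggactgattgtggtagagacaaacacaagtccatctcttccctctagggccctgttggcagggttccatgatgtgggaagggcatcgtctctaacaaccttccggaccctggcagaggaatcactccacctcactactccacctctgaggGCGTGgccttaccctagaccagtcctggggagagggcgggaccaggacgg
Slc2a1, chr4:119108495-119108744, plus strand: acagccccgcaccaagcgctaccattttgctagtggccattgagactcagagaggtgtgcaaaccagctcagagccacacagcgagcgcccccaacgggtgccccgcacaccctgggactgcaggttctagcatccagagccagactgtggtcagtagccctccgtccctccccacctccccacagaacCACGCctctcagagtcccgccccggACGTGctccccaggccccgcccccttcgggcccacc
Pdk1, chr2:71872974-71873223, plus strand: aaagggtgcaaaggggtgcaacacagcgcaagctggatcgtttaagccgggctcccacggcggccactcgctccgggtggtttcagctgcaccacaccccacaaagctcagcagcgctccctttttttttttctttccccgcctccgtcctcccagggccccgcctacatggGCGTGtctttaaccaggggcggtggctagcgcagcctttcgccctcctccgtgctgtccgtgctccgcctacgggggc
Ankrd37, chr8:45999851-46000100, minus strand: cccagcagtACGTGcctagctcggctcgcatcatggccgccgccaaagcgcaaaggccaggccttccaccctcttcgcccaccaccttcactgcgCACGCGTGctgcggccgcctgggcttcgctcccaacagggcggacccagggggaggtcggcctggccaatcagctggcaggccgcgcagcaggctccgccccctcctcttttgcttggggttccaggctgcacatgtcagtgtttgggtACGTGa

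The Ldha window held 3 matches, at 139, 42 and 29 bases before the start, and 2 of them were the palindrome CACGTG, which is also the E-box bound by MYC and related factors. Ankrd37 held 3 matches and Slc2a1 held 2. Ldhb, Aldoc and Pdk1 had 1 each, at 121, 45 and 73 bases before the start. Among all members, 29 of 33 had a window in the table, and 26 of these 29 were measured on the arrays. A match in at least 1 window was found for 25 of the 29 (86.2%), beside 41.5% of all 27025 genes in the table. Of single windows, 33 of 41 (80.5%) held the core against 38.6% of all 32851. The members' windows were also richer in G and C, at 60.7% on average against 53.2%. The core contains CG, and its share at equal base composition was not tested. The members were listed for roles in glycolysis and hypoxia, HIF targets among them, so the share of matches is not independent of that choice. A match describes the sequence and is not a measured binding site, and members with and without matches both occur among those near control.

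The lactate dehydrogenase genes gave the widest contrast among the enzymes. Ldhb encodes the H subunit, typical of tissues that oxidise lactate, and read 7.04 and 6.88 in the control arrays against 7.68 and 7.20 in the knockdown arrays. Both knockdown arrays were above both controls, and knockdown 1 held most of the difference, at 1.65-fold over the control mean against 1.19-fold in knockdown 2. The mean log2 difference was 0.48 (SE 0.16, 95% confidence interval 0.11 to 0.86, unadjusted p = 0.0189, adjusted p = 0.728, limma). The second Ldhb probe set read 6.88 and 6.78 against 7.73 and 7.23, a difference of 0.65 in the same direction. Without knockdown 1 the log2 difference of Ldhb was 0.25, and without knockdown 2 it was 0.72.

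Ldha encodes the M subunit, which favours the making of lactate and is a classical HIF target. Its signal was 11.00 and 11.01 in the control arrays against 10.79 and 11.01 in the knockdown arrays. Knockdown 1 was lower than the other 3 arrays, which were nearly equal, and the groups overlapped (log2 difference -0.11, SE 0.07, adjusted p = 0.785, limma). Whether Ldha and Ldhb differed from each other in their change was not tested.

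Aldoc was the member with the smallest p. It encodes aldolase C, the aldolase best known from brain, which cleaves fructose bisphosphate as aldolase A does in most tissues. The signal was 5.29 and 5.43 in the control arrays against 5.72 and 5.73 in the knockdown arrays, with both knockdown arrays above both controls and nearly equal. The log2 difference was 0.37 (SE 0.09, 95% confidence interval 0.15 to 0.58, unadjusted p = 0.00508, adjusted p = 0.652, limma), a 1.29-fold higher signal. A second, dim Aldoc probe set read 3.20 and 3.25 against 3.29 and 3.25, a difference of 0.05. Aldoa, the main muscle and housekeeping aldolase, read 9.13 and 9.15 in the controls against 9.11 and 9.18 (log2 difference 0.0086). Of its 4 probe sets, 2 had the other sign, at -0.04 and -0.09, with both knockdown arrays below both controls.

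**Figure D2:**
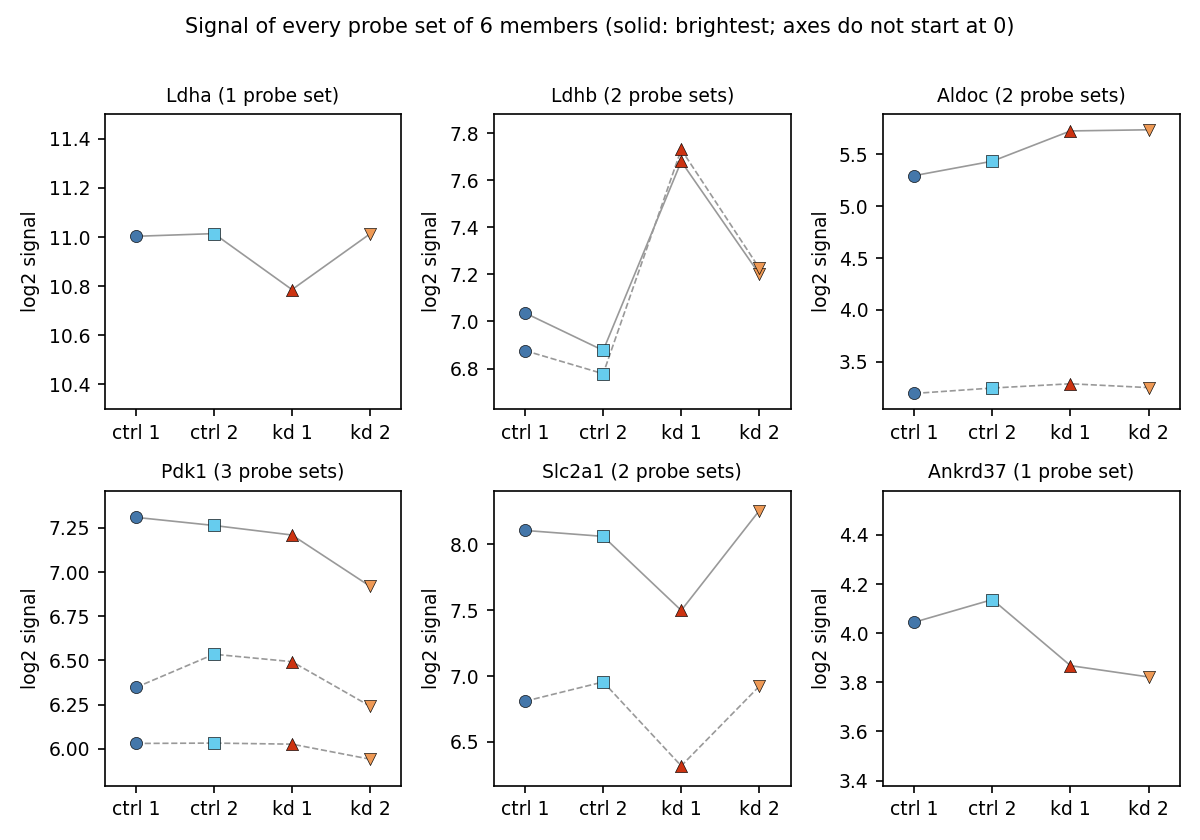
Log2 signal (y axis, not starting at 0) of every probe set of 6 members is shown in the 2 control (ctrl) and 2 knockdown (kd) arrays, with a line joining the values of 1 probe set, solid for the brightest. Both Ldhb probe sets are highest in knockdown 1, both Slc2a1 probe sets are lowest there, and the brightest Pdk1 probe set is lowest in knockdown 2.

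The remaining enzymes of the pathway had overlapping groups by their brightest probe sets. Tpi1, the triose phosphate isomerase, read 10.59 and 10.60 in the control arrays against 10.59 and 10.58 in the knockdown arrays, and its interval for the log2 difference ran from -0.08 to 0.07. Pgk1, phosphoglycerate kinase, which makes the first ATP of the pathway, read 10.63 and 10.68 against 10.62 and 10.69, with an interval of -0.10 to 0.10. The hexokinases trap glucose in the cell by phosphorylation. Hk2, the isoform induced by HIF, differed by -0.04 with overlapping groups, and Hk1, the widespread isoform, read 7.67 and 7.58 against 7.61 and 7.92, highest in knockdown 2 alone. A dim second Hk1 probe set differed by -0.10, the other way.

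Phosphofructokinase commits sugar to glycolysis, and its 3 subunit genes all had overlapping groups by their brightest probe sets. The muscle subunit gene Pfkm and the platelet subunit gene Pfkp each differed by -0.04, and each was lower than both controls in knockdown 1 and higher than both in knockdown 2. The liver subunit gene Pfkl differed by 0.06 in its brightest probe set and by -0.09 and -0.20 in the other 2. In both of these the knockdown arrays were below both controls. The difference of -0.20 had an unadjusted p of 0.0438 and an adjusted p of 0.680 over all probe sets (limma). Eno2, the neuronal enolase, was higher in knockdown 1 (4.76) than in the other 3 arrays (4.49 to 4.63). Over all 12 enzymes the median difference from the control mean was -0.02 in knockdown 1 and 0.04 in knockdown 2.

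Glucose entry gave the largest gap between the knockdown arrays. Slc2a1 encodes GLUT1, the main glucose transporter of most cells in culture. It read 8.10 and 8.06 in the controls, 7.497 in knockdown 1 and 8.25 in knockdown 2. Knockdown 1 was thus 1.498-fold below the control mean and knockdown 2 was 1.13-fold above it, so the arrays of 1 group lay on either side of the controls. The second probe set read 6.81 and 6.95 against 6.32 and 6.92, also lowest in knockdown 1. The mean log2 difference was -0.21 (SE 0.22, 95% confidence interval -0.73 to 0.32, adjusted p = 0.872, limma), and it was 0.17 without knockdown 1 and -0.58 without knockdown 2. It was the only member whose knockdown arrays were 0.5 or more apart, as were those of 2.42% of all genes.

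Slc2a3, the gene of the high-affinity transporter GLUT3, had the same order at a smaller size, with 6.25 and 6.13 in the controls, 6.002 in knockdown 1 and 6.34 in knockdown 2. Its other 3 probe sets were dimmer, and 2 of its 4 probe sets differed in sign from the brightest. Slc16a3, the gene of the lactate exporter MCT4, was dim (27.6th percentile of signal among genes) and differed by -0.04. The array can understate the change of such dim genes.

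Of the genes that steer flux, Pdk1 read lower in both knockdown arrays. Pyruvate dehydrogenase kinase 1 blocks the entry of pyruvate into the mitochondrial citric acid cycle and is a HIF target. Its signal was 7.31 and 7.26 in the control arrays against 7.21 and 6.92 in the knockdown arrays, with most of the difference in knockdown 2. The log2 difference was -0.22 (SE 0.11, 95% confidence interval -0.48 to 0.03, unadjusted p = 0.0783, adjusted p = 0.752, limma), -0.37 without knockdown 1 and -0.08 without knockdown 2. The other 2 probe sets differed by -0.07 and -0.05. Pfkfb3 and Pfkfb4 make fructose 2,6-bisphosphate, the activator of phosphofructokinase. They differed by 0.07 and 0.12, and only Pfkfb4 had separated groups (5.05 and 5.11 against 5.15 and 5.25).

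By their brightest probe sets the oxygen-sensing genes had overlapping groups, and they did not pass. Hif1a, which encodes HIF-1alpha, read 10.29 and 10.27 in the control arrays against 10.27 and 10.41 in the knockdown arrays, and knockdown 1 lay between the controls (log2 difference 0.06, 95% confidence interval -0.07 to 0.18, adjusted p = 0.842, limma). A dim second probe set read 4.19 and 4.12 against 3.98 and 3.88, which is the opposite direction (log2 difference -0.22, unadjusted p = 0.0303, adjusted p = 0.663 over all probe sets, limma), and with the mean of both probe sets the difference was -0.08. Without knockdown 1, Hif1a differed by 0.13 and passed (adjusted p = 0.0118, limma). Epas1, which encodes HIF-2alpha, read 4.41 and 4.40 against 4.53 and 4.29, 1 knockdown array on each side of the controls. A dimmer second Epas1 probe set had the reverse order, with 3.82 and 3.81 against 3.73 and 4.10. Of the prolyl hydroxylases, Egln1, the main oxygen sensor, read 8.21 and 8.21 against 8.15 and 8.27, and Egln3, itself a HIF target, differed by 0.08. For the brightest probe sets the intervals were -0.24 to 0.25 for Epas1 and -0.13 to 0.30 for Egln3. Both genes read under the highest leukocyte marker signal (4.82) in every array. A dimmer second Egln3 probe set differed by -0.13, the other way, with both knockdown arrays below both controls. The second Egln1 probe set differed by 0.09 with overlapping groups.

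**Figure D3:**
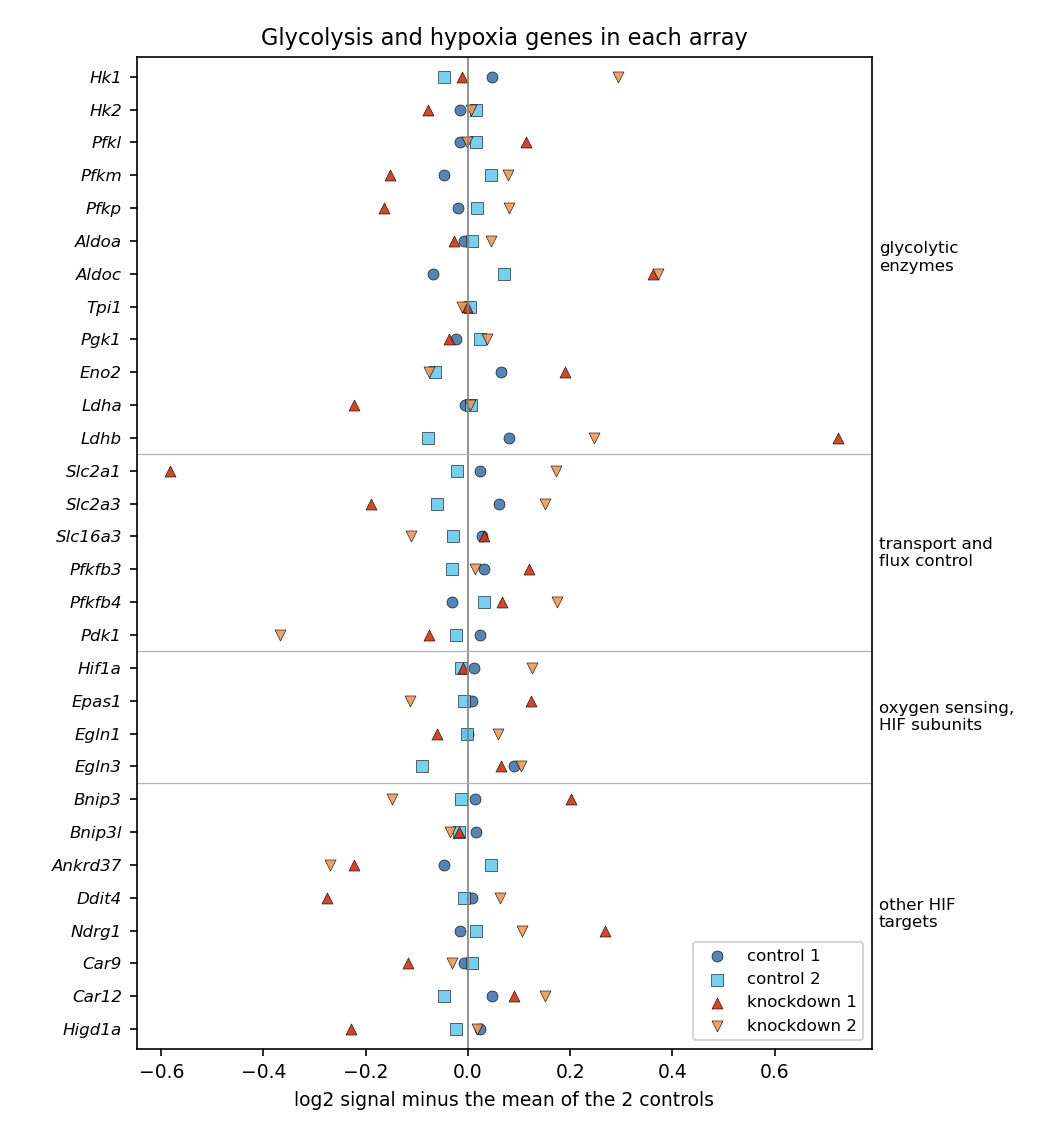
Log2 signal minus the mean of the 2 controls (x axis) is shown for each of the 30 measured members in each of the 4 arrays, grouped by role. Knockdown 1 reaches from -0.58 (Slc2a1) to 0.72 (Ldhb), knockdown 2 from -0.37 (Pdk1) to 0.37 (Aldoc), and the controls are never more than 0.18 apart.

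The 8 further HIF targets had no common direction. Ankrd37, an ankyrin repeat gene used as a marker of HIF activity, read 4.05 and 4.14 in the control arrays against 3.87 and 3.82 in the knockdown arrays, lower in both and by a like amount. The log2 difference was -0.25 (SE 0.08, 95% confidence interval -0.43 to -0.06, unadjusted p = 0.0177, adjusted p = 0.728, limma), at the 30th percentile of signal among genes. Ankrd37 read under the highest leukocyte marker signal (4.82) in every array, and its presence in these cells was not tested. Ndrg1, a stress-induced gene, read 6.22 and 6.25 against 6.50 and 6.34, higher in both (log2 difference 0.19). Its interval ran from -0.03 to 0.40.

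The mitophagy receptor gene Bnip3 read 7.88 and 7.85 in the controls against 8.07 and 7.72, higher in knockdown 1 and lower in knockdown 2. Its relative Bnip3l read 7.69 and 7.66 against 7.66 and 7.64, a difference of -0.03 with the arrays just separated. Ddit4, which encodes the mTORC1 inhibitor REDD1, read 8.99 and 8.97 against 8.70 and 9.04. Higd1a, a mitochondrial gene, read 9.40 and 9.35 against 9.15 and 9.39. Both were lower than the controls in knockdown 1 alone. The carbonic anhydrase genes Car9 and Car12, whose products regulate pH at the cell surface, were dim, at the 17.8th and 25.7th percentiles, and differed by -0.07 and 0.12. A second Car12 probe set differed by -0.27, the other way.

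The knockdown arrays often lay on opposite sides of the controls. Knockdown 1 was below and knockdown 2 above both controls for 8 members (Pfkm, Pfkp, Aldoa, Pgk1, Slc2a1, Slc2a3, Egln1 and Ddit4), against 13.2% of all genes. The reverse held for 4 (Eno2, Slc16a3, Epas1 and Bnip3), against 9.52%. These counts rest on the brightest probe set of each gene. The second Epas1 probe set had the other order, and 2 of the 4 Aldoa probe sets had both knockdown arrays below both controls. For Aldoa, Pgk1 and Egln1 the distances from the control mean were 0.06 or less after rounding. Eno2, Slc16a3 and Epas1 read under the highest leukocyte marker signal (4.82) in every array. The median distance between the knockdown arrays was 0.14 over the members and 0.10 over all genes, and between the controls it was 0.05 and 0.06. Of the 19 members with several probe sets, 11 had the same sign in all of them.

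Genes around glycolysis that were no members were counted in the same way, against backgrounds of 4.15% of all genes higher and 2.52% lower. Of 19 further glycolysis genes, limma gave 0 higher and 0 lower genes at an unadjusted p of 0.05, and none reached an adjusted p of 0.05. Gapdh, the glyceraldehyde phosphate dehydrogenase, read 11.13 and 11.22 in the controls against 11.17 and 11.22, and Eno3, the muscle enolase, read 9.92 and 9.97 against 9.73 and 10.06. The median difference was -0.02. Of 22 genes of pyruvate oxidation and the citric acid cycle, 1 was higher and 0 were lower at that level, with a median of -0.0063. It was Pdk4, the pyruvate dehydrogenase kinase of fasting, at 6.30 and 6.30 against 7.39 and 6.52 (log2 difference 0.65, SE 0.25, adjusted p = 0.743, limma). Pdk4 was 2.13-fold above the control mean in knockdown 1 and 1.16-fold in knockdown 2. Of 8 pentose phosphate genes, 1 was higher and 0 were lower, namely Pgd, which encodes phosphogluconate dehydrogenase (log2 difference 0.18, SE 0.06).

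Further hypoxia targets were spread in both directions. Of 32 measured, 5 were higher (4.15% of all genes) and 4 lower (2.52%) in limma (unadjusted p of 0.05), none reached an adjusted p of 0.05, and the median was 0.02. Ppp1r3c, which targets a phosphatase to glycogen, read 8.03 and 8.14 in the control arrays against 8.45 and 8.36 in the knockdown arrays (log2 difference 0.32, SE 0.07, adjusted p = 0.615). Vegfa, the vascular growth factor gene, differed by -0.30, and its second probe set had the other sign. Adm, the adrenomedullin gene, differed by 0.25 at the 21.3th percentile of signal, under the highest leukocyte marker signal (4.82) in every array. Thus these 3 targets, the ones with the smallest p, did not share a direction.

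Of 14 genes of the oxygen-sensing machinery, 2 were higher (4.15% of all genes) and 0 lower (2.52%) in limma (unadjusted p of 0.05), and the median was 0.04. Arnt2, a paralogue of the HIF partner Arnt, read 6.71 and 6.71 against 7.01 and 7.09 (log2 difference 0.34, SE 0.07, adjusted p = 0.615, limma). Cited2, which competes with HIF for its coactivators and is also counted among the hypoxia targets, read 7.94 and 7.95 against 8.68 and 8.14 (log2 difference 0.46, SE 0.16). Both knockdown arrays were above both controls for 7 of the 14 genes, against 21.2% of all genes, and below for 1, against 17.1%.

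**Figure D4:**
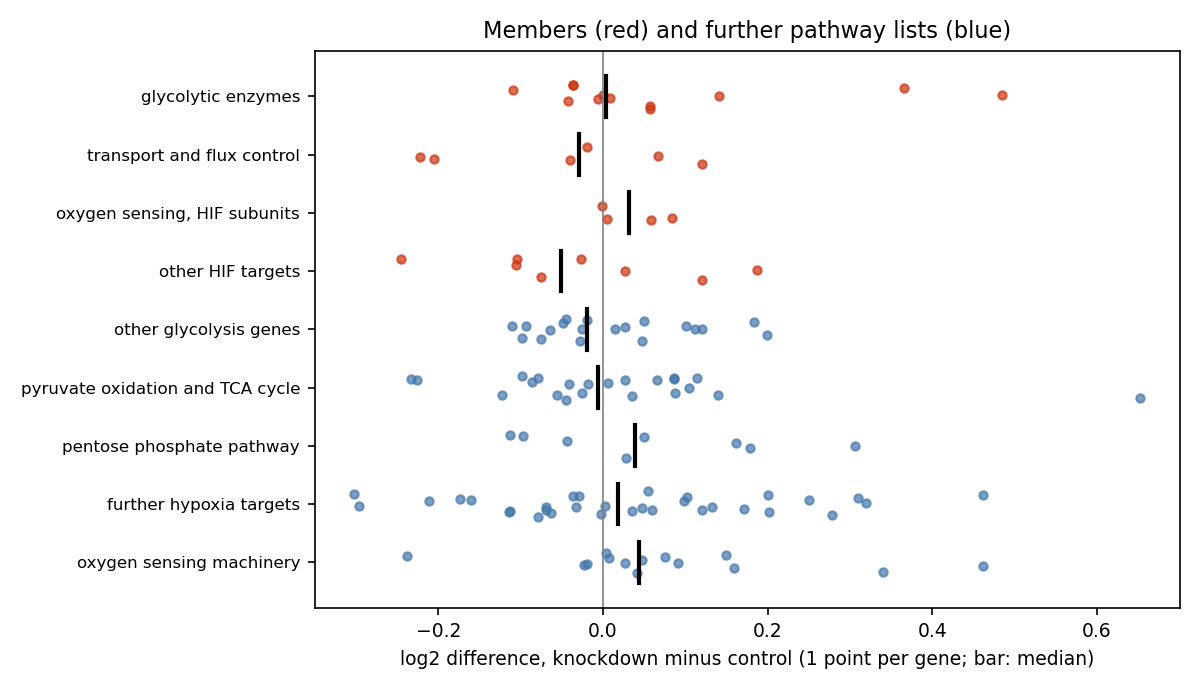
The log2 difference (knockdown minus control, x axis) of each measured gene is shown as a point for the 4 groups of members (red) and 5 further pathway lists (blue), with a bar at each list's median; vertical scatter within a list has no meaning. The medians lie between -0.05 (other HIF targets) and 0.04 (oxygen-sensing machinery), and the most distant points are Ldhb among members and Pdk4 among the others.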

How the data were processed

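The authors deposited 1 log2 signal for each probe set and array, computed with RMA per the submitters' processing notes, with no version given in the sources used here. RMA makes the arrays' distributions alike, so differences in total RNA are removed. Of 45141 probe sets, 104 array controls were left out. Genes were named from the platform annotation, which can be old, and each was given by its brightest probe set among those with 1 symbol. Knockdown was compared with control over 17097 genes in limma 3.58.1 under R 4.3.3 (linear model and trended eBayes, two-sided, Benjamini-Hochberg over all genes, threshold 0.05), with 2 residual and 4.45 prior degrees of freedom and no filter. The fit was tested on simulated data in which both groups had the same spread. In the real data the SD of the difference between arrays was 1.93 times as large for knockdown as for control. The simulation does not cover that setting. The members, their grouping, the further lists and the alternatives were chosen with earlier results of these data known. Values in every array were given for members separated by at least 0.2 or with knockdown arrays at least 0.5 apart, and for Hif1a, Epas1, Slc2a1 and Ldha; other members' values are examples chosen after they were seen. From each further list, up to 3 genes with the smallest p under 0.05 or else the 2 brightest were named. Promoter sequences are from RefSeq. With 2 arrays per group, their number sets the precision.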

Additional observations from a re-analysis of the deposited data

How the results depend on the processing

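Nothing passed over all genes under 9 of the 12 alternatives, and 2 arrays per group limit every statement. Testing all probe sets gave 1 passing probe set, and leaving out 1 array gave 0 to 2584 passing genes, 561 without knockdown 1 and 2584 without knockdown 2, where the lone knockdown array is assumed to vary like the controls. Members lower at an unadjusted p of 0.05 numbered 0 without dim genes (Ankrd37 is left out there), 4 probe sets when all were tested (those of Ankrd37, Car12, Hif1a and Pfkl), and 0 to 8 when 1 array was left out. Members higher numbered 3 probe sets when all were tested and 1 to 5 when 1 array was left out. The median of the glycolytic enzymes stayed between -0.03 and 0.04 under the 12 alternatives and moved by less than the spread between arrays. That of the other members was -0.0461 with the mean of all probe sets and -0.0243 to 0.0383 when 1 array was left out.

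The signs of Aldoc, Ldhb, Pdk1 and Ankrd37 were the same under every alternative that could be computed for them. Leaving out 1 array gave 0.30 to 0.44 for Aldoc, 0.25 to 0.72 for Ldhb, -0.37 to -0.08 for Pdk1 and -0.29 to -0.20 for Ankrd37. It gave -0.58 to 0.17 for Slc2a1, -0.22 to 0.0043 for Ldha, -0.0088 to 0.13 for Hif1a and -0.11 to 0.12 for Epas1, whose signs turned. The sign also turned for Hif1a with the mean of all probe sets (-0.0820) and for Epas1 with quantile normalization (-0.0054), and the cause was not tested. With the replicate number as a block, 0 genes passed, the members counted at an unadjusted p of 0.05 were again 2 higher and 1 lower, and no call changed. Same-numbered arrays did not deviate together (correlation over genes -0.0041), so the numbers were not taken as pairs.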
